A study of Mus musculus with 19 samples.

Results

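Dusp1 and 7 related genes, Dusp2, Dusp4, Dusp5, Dusp6, Dusp7, Dusp8 and Dusp14, were followed through the left prelimbic cortex of mice given the NMDA receptor blocker MK-801 and a magnetic nanoparticle stimulation. They were found by symbol in the deposited count table and are 8 of its 20938 genes. The set was chosen from values in these same libraries: Dusp1 was selected on its level, where it ranked 1 of 16417 tested genes by p in the comparison of the stimulated with the unstimulated MK-801 mice. The values of Dusp1 are therefore given as a description, with no test. The other members were added as its relatives with earlier results known. All 8 passed the filter on low counts.

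The dual-specificity phosphatases of this family switch off MAP kinases by removing phosphate from both the threonine and the tyrosine of their activation loop. Several are immediate early or ERK-induced genes, so that a kinase cascade which turns them on is then turned down by them. In the cortex, Dusp1 is known as a gene that synaptic activity, glucocorticoids and stress switch on within minutes. Dusp1, Dusp2, Dusp4 and Dusp5 encode inducible nuclear phosphatases, of which Dusp5 acts on ERK. Dusp6 and Dusp7 encode cytoplasmic phosphatases that prefer ERK, and Dusp8 one that prefers JNK and p38. Dusp14 encodes a small atypical phosphatase without the kinase docking domain of the others.

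The study crossed 2 treatments in 19 libraries of total RNA. Control mice (6 libraries) had saline and SCZ mice (4 libraries) had MK-801 at 0.2 mg/kg, each injected into the abdomen every day for 2 weeks. Control+c-MSST (5 libraries) and SCZ+c-MSST (4 libraries) mice had the same injections and then c-MSST: ferumoxytol, an iron oxide nanoparticle, was placed once in the left prelimbic cortex and a pulsed magnetic field was applied. Tissue was taken on day 3 after surgery. Below, the MK-801 contrast is SCZ against Control, and the MK-801 contrast under c-MSST is SCZ+c-MSST against Control+c-MSST. The c-MSST contrast in saline mice is Control+c-MSST against Control, and the c-MSST contrast in MK-801 mice is SCZ+c-MSST against SCZ. The labels do not say whether mice without c-MSST had surgery, so nanoparticle, field and surgery cannot be told apart, and they give no strain, sex, age or batch. SCZ names a drug model in which systemic MK-801 reached the whole brain. Nothing says that the libraries are separate animals, so p-values measure the spread between these libraries, which may be technical.

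Library totals ran from 50140626 to 82416746 counts. All 8 markers of cortical excitatory neurons were detected, with summed levels of 4622 to 7151 CPM (read counts scaled to library size) over the 19 libraries. Markers of neighbouring tissue varied. The 9 striatal markers summed to 235 to 2250 CPM in Control, 327 to 1877 in Control+c-MSST, 1828 to 2500 in SCZ and 1197 to 2936 in SCZ+c-MSST. The 6 choroid plexus markers summed to 8.18 to 1696 CPM in Control and to at most 24.9 CPM in the other groups, the high value belonging to Control replicate 2, with Control replicate 3 next. The 5 blood markers summed to 106 to 257 CPM in Control, 129 to 216 in Control+c-MSST, 133 to 152 in SCZ and 189 to 1294 in SCZ+c-MSST. No marker of these lists was at 0 in every library. In such bulk tissue, fewer cells of a type and less RNA per cell cannot be told apart.

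In RefSeq on GRCm38.p6, Dusp1 lies at chr17:26505591-26508472, Dusp2 at chr2:127336159-127338377, Dusp4 at chr8:34807610-34819894 and Dusp5 at chr19:53529145-53541809. Dusp6 lies at chr10:99263231-99267489, Dusp7 at chr9:106368560-106375724, Dusp8 at chr7:142079487-142095907 and Dusp14 at chr11:84048033-84069256. The GENCODE model of Dusp1 is longer than that of RefSeq and overlaps 4 other genes, Ergic1 on the other strand among them, none of which touches the RefSeq span. Promoter letters were available from RefSeq (GRCm38.p6) for 7 of the 8 genes, all but Dusp4. In each, 300 bases (250 before the start and 50 after it) were searched on both strands for 5 motifs. TGACGTCA and its shorter part TGACG are the cyclic AMP response element, which CREB binds, and every TGACGTCA also holds TGACG. The CArG box is bound by serum response factor, TGANTCA by AP-1 and GCGTGGGCG by the Egr proteins. The start is that of the promoter table, which for Dusp7, Dusp8 and Dusp14 lies 72, 623 and 899 bases inside the gene span given above, so the letters of Dusp8 are within that span. The 250 bases before the start are printed for Dusp1 (chr17:26508473-26508722, minus strand), Dusp5 (chr19:53528895-53529144, plus strand) and Dusp8 (chr7:142095285-142095534, minus strand), with motif matches in capitals. Dusp1 and Dusp5 are shown because their SCZ and Control levels did not overlap, and Dusp8 because it holds the same element as Dusp1 while its level hardly varied.
Dusp1: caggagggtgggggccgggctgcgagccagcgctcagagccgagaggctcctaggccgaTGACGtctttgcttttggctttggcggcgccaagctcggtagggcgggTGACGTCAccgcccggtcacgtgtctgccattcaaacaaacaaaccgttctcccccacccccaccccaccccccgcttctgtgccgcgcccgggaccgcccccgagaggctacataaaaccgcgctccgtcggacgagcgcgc
Dusp5: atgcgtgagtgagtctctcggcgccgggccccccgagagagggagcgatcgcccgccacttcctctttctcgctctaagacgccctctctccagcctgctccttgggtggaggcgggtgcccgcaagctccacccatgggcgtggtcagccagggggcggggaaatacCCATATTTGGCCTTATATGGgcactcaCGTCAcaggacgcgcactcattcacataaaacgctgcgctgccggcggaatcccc
Dusp8: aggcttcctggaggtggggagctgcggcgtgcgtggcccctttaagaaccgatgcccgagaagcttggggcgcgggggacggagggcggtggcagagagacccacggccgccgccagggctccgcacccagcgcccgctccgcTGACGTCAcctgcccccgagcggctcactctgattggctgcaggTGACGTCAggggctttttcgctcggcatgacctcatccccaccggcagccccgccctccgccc
In Dusp1, TGACGTCA begins 143 bases before the start and a single TGACG 191 bases before it. Dusp8 has TGACGTCA at 107 and again at 63 bases before the start. In Dusp5, the CArG boxes CCATATTTGG and CCTTATATGG stand side by side, beginning 82 and 72 bases before the start, with CGTCA, the reverse complement of TGACG, at 55. TGACGTCA occurs in 1.79% of 32817 mouse promoters of this length, TGACG in 20.8% and the CArG box in 1.63%. Among the 7 members these motifs were found in 2 (Dusp1, Dusp8), 4 (Dusp1, Dusp2, Dusp5, Dusp8) and 1 (Dusp5). The windows of the members held from 57.3% (Dusp6) to 78.7% (Dusp7) GC, beside a median of 52.7% over all promoters. TGACGTCA and TGACG both contain CG, and the part of base content in these counts was not tested. TGANTCA (7.81% of promoters) and GCGTGGGCG (0.612%) were in none of the 7, and the windows of Dusp6, Dusp7 and Dusp14 held no match to any of the motifs.

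Per length of transcript, Dusp8 was the most abundant member, at 39.0 ± 3.26 FPKM (SD, n = 19), and ranked above the next gene in 19 of 19 libraries. Dusp6 and Dusp7 followed at 10.6 ± 1.60 and 10.4 ± 1.06 FPKM (SD, n = 19) and were not ordered by their spread, Dusp6 being the higher in 11 of 19 libraries. Dusp14 stood at 6.51 ± 1.11 FPKM and Dusp1 at 5.78 ± 2.10 FPKM (SD, n = 19), with Dusp14 above Dusp1 in 12 of 19 libraries, so this pair was not ordered either. Dusp1 exceeded Dusp4 (2.35 ± 0.888 FPKM) in 18 of 19 libraries. Dusp5 (1.48 ± 0.866 FPKM) lay below Dusp4 and Dusp2 (0.402 ± 0.207 FPKM) below Dusp5 in every library. The genes with the ERK-directed cytoplasmic and the JNK-directed products were thus more abundant than those of the inducible nuclear ones.

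The members also differed in how steady they were. The standard deviation of log2 CPM within groups was 0.063 for Dusp8, below that of all but 4.31% of the tested genes. It was 0.12 for Dusp7 (30.0th percentile), 0.18 for Dusp6 (49.6th) and 0.19 for Dusp14 (51.7th). The inducible nuclear members spread more, with 0.32 for Dusp1 (70.0th percentile), 0.39 for Dusp4 (76.0th), 0.44 for Dusp5 (79.0th) and 1.21 for Dusp2 (94.7th), the last being the gene with the fewest counts.

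**Figure D1:**
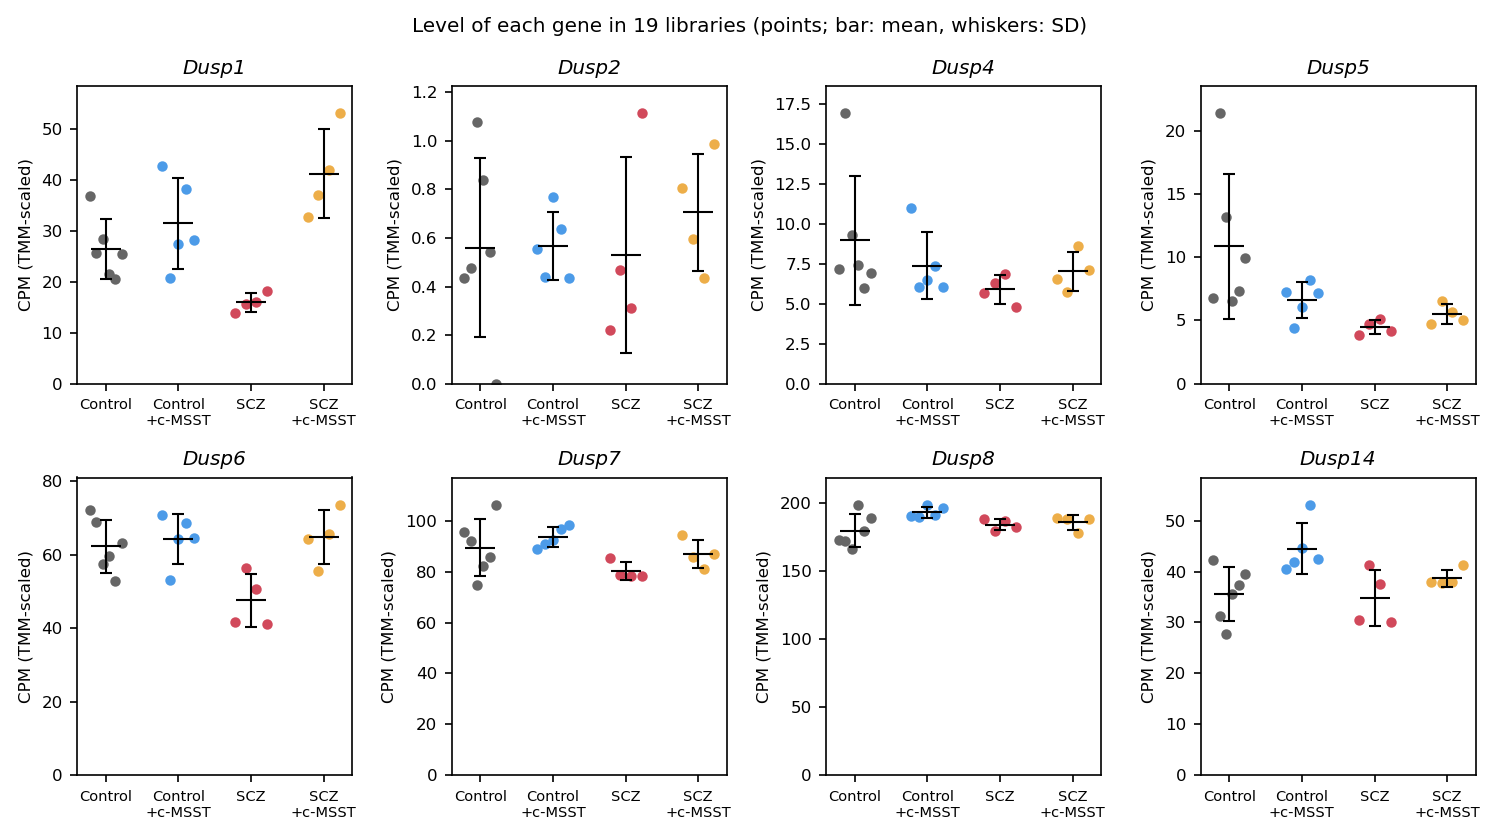
Level of the 8 phosphatase genes in each of the 19 libraries, in TMM-scaled CPM on linear axes that start at 0; points are libraries, bars the group means and whiskers the SD. For Dusp1, which was chosen on these libraries, the 4 SCZ libraries (13.8 to 18.2 CPM) lie below all libraries of the other 3 groups. The high Dusp4 and Dusp5 points in Control belong to replicate 2.

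Dusp1, which encodes the inducible nuclear phosphatase that acts on p38, JNK and ERK, was low in the mice given MK-801 alone and high in those given MK-801 and c-MSST. In SCZ replicates 1, 2, 3 and 5 it stood at 13.8, 15.6, 16.0 and 18.2 CPM. In SCZ+c-MSST replicates 2, 3, 4 and 5 it stood at 32.7, 36.9, 41.9 and 53.1 CPM. In Control the lowest, median and highest libraries were at 20.6, 25.5 and 36.8 CPM, and the 5 Control+c-MSST libraries were at 20.6, 27.3, 28.2, 38.2 and 42.6 CPM. All SCZ libraries were below all libraries of the other groups, while Control and Control+c-MSST overlapped over most of their range. SCZ+c-MSST overlapped with the highest Control library and with the upper libraries of Control+c-MSST. Of all tested genes, 1.25% were lower in SCZ than in Control without overlap, and 4.50% were higher in SCZ+c-MSST than in SCZ. The share below all other groups together was not counted, and Dusp1 was chosen on these libraries.

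The group means of Dusp1 were 26.4 ± 5.84 CPM in Control (SD, n = 6), 31.4 ± 8.87 in Control+c-MSST (n = 5), 15.9 ± 1.82 in SCZ (n = 4) and 41.2 ± 8.77 in SCZ+c-MSST (n = 4). The mean in SCZ was 0.603 times that in Control, which is -0.73 on the log2 scale (SE 0.20). With c-MSST the mean of the MK-801 mice was 2.59 times that without it, a log2 fold change of 1.37 (SE 0.21). In saline mice c-MSST went with a log2 fold change of 0.25 (SE 0.18). The difference between the effects of c-MSST in MK-801 and in saline mice, the interaction, was 1.12 on the log2 scale (SE 0.28). SCZ+c-MSST exceeded Control+c-MSST by a log2 fold change of 0.39 (SE 0.20). SCZ against Control and SCZ+c-MSST against SCZ share the 4 SCZ libraries, and the interaction uses all 4 groups, so these values are not separate observations of Dusp1.

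The summed blood markers had their highest median in SCZ+c-MSST (318 CPM, beside 129 to 145 CPM elsewhere), the group with the highest Dusp1. The 5 markers summed to 1294, 320, 189 and 315 CPM in SCZ+c-MSST replicates 2, 3, 4 and 5, where Dusp1 stood at 32.7, 36.9, 41.9 and 53.1 CPM. The sum of replicate 4 lay below those of Control replicate 5 (257 CPM) and Control+c-MSST replicate 2 (216 CPM). Hbb-bs alone ran from 0.846 to 545 CPM over the 19 libraries. With group means removed, the median Pearson r of Dusp1 to the 5 blood markers was -0.28 over the 19 libraries, from -0.68 for Hbb-bs to 0.24 for Hba-a1. The part of blood in the level of Dusp1 was not tested. Nor was that of striatal tissue, whose markers summed to 1828 to 2500 CPM in SCZ and 235 to 2250 CPM in Control. With blood, endothelial and microglia marker scores as covariates, an alternative chosen after seeing the data, the log2 fold change of Dusp1 was 1.67 in SCZ+c-MSST against SCZ and -1.12 in SCZ against Control, while that in Control+c-MSST against Control turned from 0.25 to -0.09.

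Dusp2, an inducible nuclear phosphatase known best from activated lymphocytes, was near the lower end of detection. Control replicate 7 held 0 counts of it, which allows a level of up to 0.0462 CPM (3 counts, counting error only), and the other 18 libraries held 16 to 96 counts. Group means were 0.561 ± 0.369 CPM in Control (SD, n = 6), 0.567 ± 0.141 in Control+c-MSST (n = 5), 0.529 ± 0.404 in SCZ (n = 4) and 0.705 ± 0.243 in SCZ+c-MSST (n = 4). The ranges of all groups overlapped. Its log2 fold change in the MK-801 contrast was -0.08 (SE 0.64, edgeR adjusted p = 0.979). In the c-MSST contrast of MK-801 mice it was 0.41 (SE 0.70, adjusted p = 0.930), and this value moved to 1.08 without SCZ replicate 5, the library with the most Dusp2 counts (96). With so few counts, small differences in Dusp2 were not detectable.

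Dusp4, a nuclear phosphatase induced by ERK signalling, lay between 4.80 and 9.33 CPM in all libraries but 2, Control replicate 2 at 17.0 CPM and Control+c-MSST replicate 1 at 11.0 CPM. In Control the lowest, median and highest libraries were at 6.01, 7.31 and 17.0 CPM, and in the 4 SCZ libraries Dusp4 was at 4.80, 5.65, 6.32 and 6.88 CPM. Those groups overlapped in the range of the lower Control libraries. In the MK-801 contrast the value for Dusp4 was -0.60 on the log2 scale (SE 0.25, adjusted p = 0.304), and it was -0.32 without Control replicate 2 and -0.22 without Control replicates 2 and 3. Without both, the Control mean went from 8.97 ± 4.06 CPM (SD, n = 6) to 6.89 ± 0.621 CPM (n = 4), and the c-MSST contrast in saline mice from -0.28 to 0.10. Control replicate 2 and Control replicate 3 are the libraries with high choroid plexus markers, Ttr standing at 1607 and 150 CPM there and at no more than 7.78 CPM elsewhere, and the part of this in Dusp4 was not tested.

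Dusp5, the nuclear phosphatase that acts on ERK, stood lower in SCZ than in Control without overlap. The 4 SCZ libraries were at 3.86, 4.15, 4.72 and 5.09 CPM, and the lowest, median and highest Control libraries at 6.54, 8.62 and 21.4 CPM. Control replicates 2 (21.4 CPM) and 3 (13.2 CPM) were again the highest libraries. On the log2 scale the fold change was -1.29 (SE 0.29, adjusted p = 0.148) with all libraries and -0.78 (SE 0.18, adjusted p = 0.224) without those 2, so the difference did not pass the threshold of 0.05 in either case, though the remaining 4 Control libraries still lay above all SCZ libraries. DESeq2 called it (adjusted p = 0.00460), as did edgeR without Control replicate 4. With striatal, septal and choroid plexus scores as covariates it was -0.68 (SE 0.20, adjusted p = 0.760), so that over all alternatives the adjusted p ran from 0.00460 to 0.760. Control+c-MSST was at 6.60 ± 1.44 CPM (SD, n = 5) and overlapped with Control (log2 fold change -0.72, SE 0.26, adjusted p = 0.183; -0.41 without Control replicate 2 and -0.21 without Control replicates 2 and 3). SCZ+c-MSST, at 5.48 ± 0.795 CPM (n = 4), overlapped with SCZ (log2 fold change 0.30, SE 0.30, adjusted p = 0.855). The fold of Dusp5 in that comparison was no larger than its standard error. An antisense gene overlaps Dusp5 in GENCODE, and reads of the pair cannot be told apart unless the counting used strand.

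Dusp6, a cytoplasmic phosphatase with ERK as its substrate and a common readout of ERK activity, had the pattern nearest to that of Dusp1 among the members, with a smaller range. The 4 SCZ libraries stood at 41.2, 41.8, 50.6 and 56.4 CPM and the 4 SCZ+c-MSST libraries at 55.5, 64.3, 65.6 and 73.6 CPM, so that only the highest SCZ and the lowest SCZ+c-MSST library crossed. The lowest, median and highest libraries were at 52.8, 61.4 and 72.1 CPM in Control, and the Control+c-MSST libraries were at 53.2, 64.2, 64.5, 68.5 and 70.9 CPM. Its log2 fold change was -0.39 for MK-801 (SE 0.11, adjusted p = 0.165). For c-MSST it was 0.45 in MK-801 mice (SE 0.12, adjusted p = 0.310) and 0.04 in saline mice. Its interaction was 0.40 (SE 0.15, adjusted p = 0.613). None of these passed the adjusted threshold by edgeR, and DESeq2 passed the first (adjusted p = 0.0324). Over all alternatives that adjusted p ran from 0.0324 to 0.760, the latter by edgeR with striatal, septal and choroid plexus scores as covariates. With each library of the compared groups left out in turn, the MK-801 contrast stayed between -0.48 and -0.33 and the c-MSST contrast in MK-801 mice between 0.38 and 0.54.

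Dusp7, the other cytoplasmic phosphatase with a preference for ERK, varied little. Means were 89.5 ± 11.1 CPM in Control (SD, n = 6), 93.5 ± 3.92 in Control+c-MSST (n = 5), 80.1 ± 3.52 in SCZ (n = 4) and 87.1 ± 5.51 in SCZ+c-MSST (n = 4), with overlapping ranges of SCZ and Control. For MK-801 its log2 fold change was -0.16 (SE 0.07, adjusted p = 0.357), and for c-MSST in MK-801 mice 0.12 (SE 0.08, adjusted p = 0.774).

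Dusp8, which encodes the phosphatase that prefers JNK and p38, stood at 166 to 199 CPM in Control, 190 to 199 in Control+c-MSST, 179 to 188 in SCZ and 178 to 189 in SCZ+c-MSST. Its log2 fold change was 0.04 for MK-801 (SE 0.04, adjusted p = 0.780). For c-MSST it was 0.10 in saline mice (SE 0.04, adjusted p = 0.225) and 0.01 in MK-801 mice (SE 0.05, adjusted p = 0.973). The SCZ+c-MSST libraries lay below all Control+c-MSST libraries by little (-0.06 on the log2 scale, SE 0.05, adjusted p = 0.696). A non-coding gene on the other strand, Gm32786, overlaps Dusp8 in GENCODE.

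Dusp14, the atypical member, had its highest mean in Control+c-MSST. The libraries of that group stood at 40.5, 41.8, 42.5, 44.5 and 53.2 CPM. In Control the lowest, median and highest libraries were at 27.6, 36.4 and 42.2 CPM, so that only the highest Control library reached into the stimulated group. The lowest Control libraries were replicates 3 (27.6 CPM) and 2 (31.2 CPM), those with high choroid plexus markers. Without them the Control mean went from 35.6 ± 5.38 CPM (SD, n = 6) to 38.6 ± 2.89 CPM (n = 4), beside 44.5 ± 5.06 CPM in Control+c-MSST (n = 5). In saline mice the log2 fold change for c-MSST was 0.32 (SE 0.10, adjusted p = 0.140). In MK-801 mice the groups overlapped, SCZ at 34.9 ± 5.52 CPM and SCZ+c-MSST at 38.7 ± 1.70 CPM (SD, n = 4 each; log2 fold change 0.15, SE 0.12, adjusted p = 0.810). On log2(FPKM + 1), limma called Dusp14 higher in Control+c-MSST than in Control (adjusted p = 0.0459). Over all alternatives that adjusted p ran from 0.0459 to 0.579, the latter by edgeR with striatal, septal and choroid plexus scores as covariates.

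**Figure D2:**
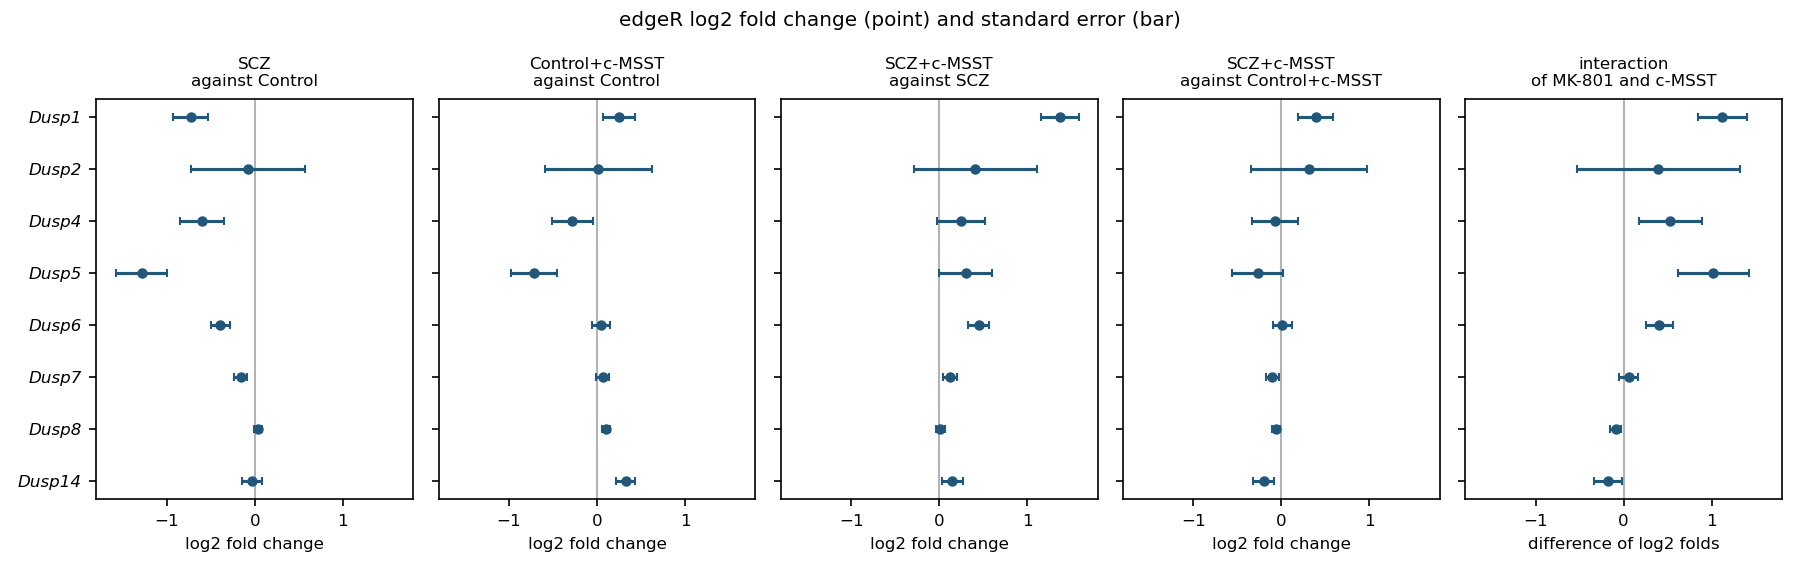
Log2 fold change of each gene in the 4 comparisons and the interaction (points, edgeR fit to 19 libraries) with its standard error (bars). In SCZ+c-MSST against SCZ all 8 points lie above 0, that of Dusp1 at 1.37 and the others at 0.45 or less.

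Counted over the set, edgeR called 0 of 8 members at the adjusted threshold of 0.05 in the MK-801 contrast (SCZ against Control), where it called 0% of the 16417 tested genes. At an unadjusted p under 0.05 there were 5 members (Dusp1, Dusp4, Dusp5, Dusp6 and Dusp7) against 13.5% of all genes, and DESeq2 called 3 (Dusp1, Dusp5 and Dusp6) of the 7 members to which it gave an adjusted p, against 1.84% of all genes with one. Groups did not overlap for 2 members, Dusp1 and Dusp5, both lower in SCZ (1.25% of all genes), and for 0 members in the other direction (1.60%). Values were negative for 7 of the 8 members, with a median of -0.28, and positive for 50.1% of all genes. Dusp1 was chosen in part on its SCZ libraries, which this contrast shares, and its relatives were added with earlier results known. Nothing is therefore read from these counts.

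In SCZ+c-MSST against SCZ, the comparison from which Dusp1 was picked, 0 of 8 members were called by edgeR (0% of all genes), 2 had an unadjusted p under 0.05 (Dusp1 and Dusp6; 7.56% of all genes) and DESeq2 called 1 (Dusp1; 0.378% of all genes). Dusp1 was the single member whose groups did not overlap, being higher in SCZ+c-MSST (4.50% of all genes), and 0 were lower (3.78%). All 8 members had a positive log2 fold change, with a median of 0.27, beside -0.01 over all genes, of which 47.4% were positive. These counts come from the libraries on which the set was selected and nothing is read from them.

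In Control+c-MSST against Control, edgeR called 0 of 8 members (0.329% of all genes, 54 genes) and DESeq2 0 (3.46% of all genes), and 3 had an unadjusted p under 0.05 (Dusp5, Dusp8 and Dusp14; 16.6% of all genes). No member's groups were apart in either direction (0.847% of genes higher, 0.755% lower). In SCZ+c-MSST against Control+c-MSST, edgeR called 0 of 8 members (0% of all genes) and DESeq2 0 (0.454% of all genes), and 0 had an unadjusted p under 0.05 (11.0% of all genes). Dusp8 alone was apart, being lower (2.36% of genes), and 0 members were higher (2.30%). In the interaction, edgeR called 0 of 8 members (0% of all genes) and DESeq2 1 (Dusp1; 0.244% of all genes), and 3 had an unadjusted p under 0.05 (Dusp1, Dusp5 and Dusp6; 7.29% of all genes). The interaction uses the SCZ libraries too, and nothing is read from its counts. The adjusted p of the 7 members other than Dusp1 ran from 0.140 to 0.993 over the 4 comparisons and the interaction.

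**Figure D3:**
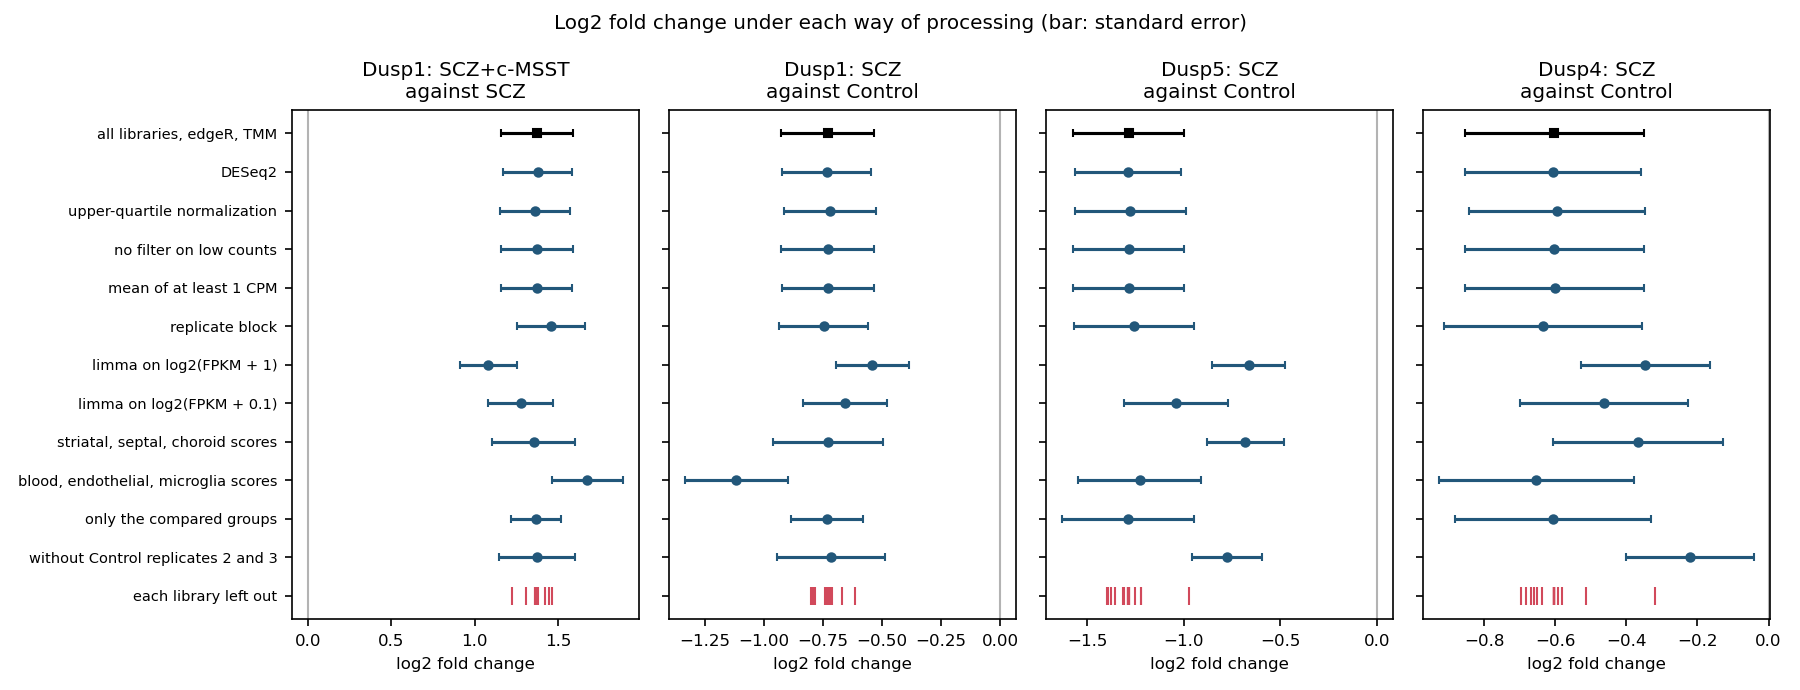
Log2 fold change of Dusp1, Dusp5 and Dusp4 under each way of processing, with bars for standard errors; the lowest line marks the values with each library left out in turn. Dusp1 in SCZ+c-MSST against SCZ stays between 1.08 and 1.67 (the lowest on log2(FPKM + 1)), while Dusp5 and Dusp4 in SCZ against Control come nearer to 0 without Control replicates 2 and 3, at -0.78 and -0.22.

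Within groups, the member closest to Dusp1 was Dusp6. After subtraction of group means, the log2 CPM of the pair had a Pearson r of 0.64 and a Spearman rho of 0.66 over 19 libraries, given as a description with no test because Dusp1 was chosen on these libraries. Without the 2 libraries farthest from the median of Dusp1 the r was 0.48, and without Control replicates 2 and 3 it was 0.69. The r to Dusp1 was lower for Dusp4 (0.35), Dusp5 (0.27), Dusp14 (0.20), Dusp2 (0.12), Dusp7 (-0.01) and Dusp8 (-0.37). All pairs come from the same libraries and share their depth and tissue composition.

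Among the other pairs, also a description, Dusp4 and Dusp5 had an r of 0.73, which was 0.29 without Control replicates 2 and 3, and so rested on those libraries. Dusp4 with Dusp6 (0.53, then 0.64) and Dusp6 with Dusp14 (0.52, then 0.70) did not. Dusp2 and Dusp7 had an r of -0.70, then -0.66, but a Spearman rho of -0.35 over all libraries. The library with 0 counts of Dusp2, Control replicate 7, was the one with the highest Dusp7 (106 CPM).

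**Figure D4:**
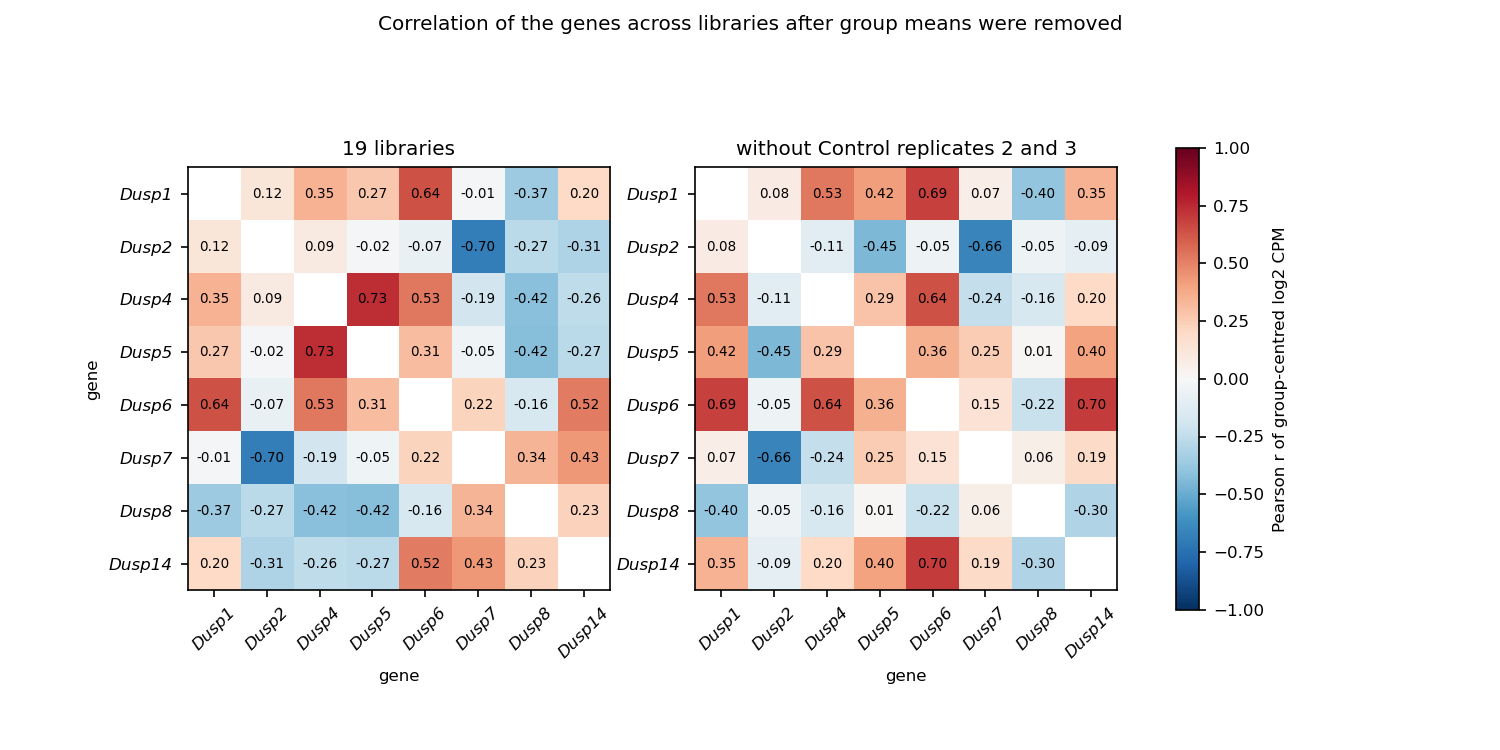
Pearson correlation of each pair of genes over libraries, from log2 CPM with group means removed, for all 19 libraries (left) and without Control replicates 2 and 3 (right); red is positive and blue negative. Dusp1 with Dusp6 is at 0.64 and 0.69, while Dusp4 with Dusp5 goes from 0.73 to 0.29.

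Of 14051 genes with a mean of at least 1 CPM, the one whose group-centred pattern was most like that of Dusp1 was Btg2, an immediate early gene that restrains cell division (r = 0.90, n = 19 libraries). Ssc5d (0.86), Cyp51, an enzyme of cholesterol synthesis (0.85), Ccn1, a secreted matrix protein and immediate early gene (0.82), and Gm5136 (0.81) came next. Btg2 stood at 12.6 ± 2.50 CPM in SCZ and 34.7 ± 7.40 in SCZ+c-MSST (SD, n = 4 each), beside 21.5 ± 5.74 in Control (n = 6) and 24.1 ± 8.82 in Control+c-MSST (n = 5). Ccn1 stood at 2.68 ± 0.494 CPM in SCZ and 12.0 ± 3.78 in SCZ+c-MSST (SD, n = 4 each), beside 6.54 ± 2.84 and 6.15 ± 3.08 CPM in the saline groups. Of the 5 genes, 4 (Btg2, Ssc5d, Ccn1 and Gm5136) had every SCZ library below every SCZ+c-MSST library, as 4.50% of all genes did, while Cyp51 overlapped, at up to 69.6 CPM in SCZ and from 62.3 CPM in SCZ+c-MSST. The likeness was measured with group means removed.

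The nearest genes of Dusp6 were Fos (r = 0.84), Egr1 (0.84) and the heat shock gene Hspa1b (0.79), the first pair being the textbook immediate early transcription factors of neurons. Fos stood at 10.5 ± 3.34 CPM in SCZ (SD, n = 4) and at means of 19.4 to 20.4 CPM in the other groups. The genes nearest to the remaining members were not immediate early genes of the list used here: Epha5 (r = 0.85), Fry and Btbd3 for Dusp4, Mindy3 (0.91), Plxna4 and Atp2b3 for Dusp5, and Zmiz2 (0.94), Cacna1a and Ajm1 for Dusp7. For Dusp8 they were Ly6a (0.83), Dtx3l and Ly6c1, and for Dusp14 Tspan7 (0.86), Ctnnd1 and Crip2. For Dusp2, its library with 0 counts included, they were Hus1 (0.93), Rsph4a and Tspan6. These genes were ranked over the same libraries, whose tissue composition they share, and no test was made.

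**Figure D5:**
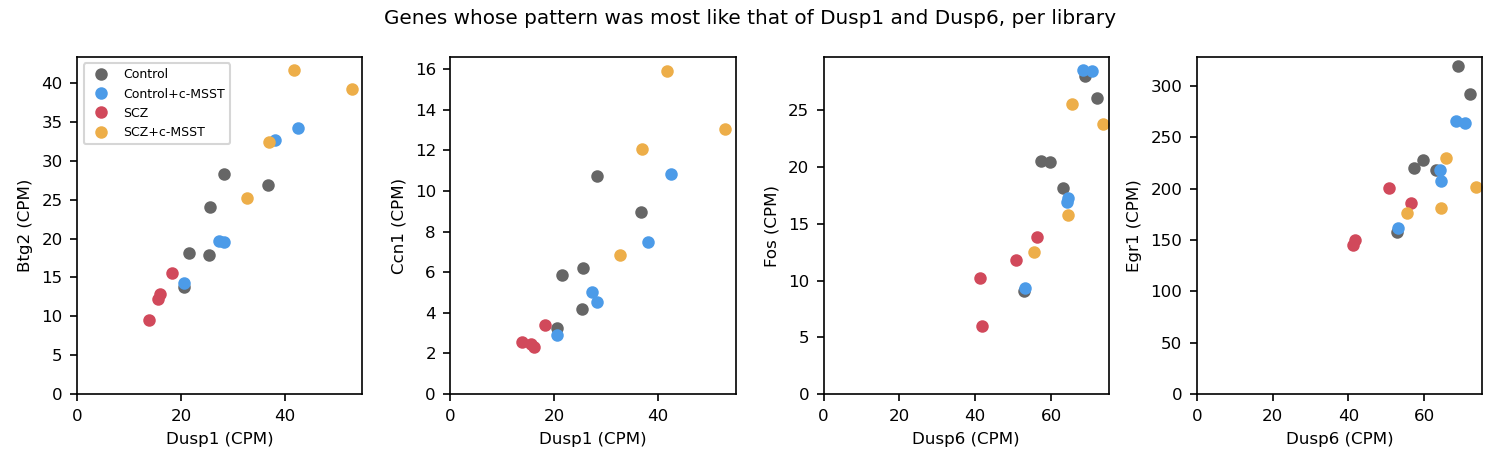
Levels in CPM of Dusp1 against Btg2 and Ccn1, and of Dusp6 against Fos and Egr1, on linear axes from 0; each point is a library, coloured by group. The SCZ libraries lie at the lower left of the Dusp1 panels (Dusp1 at 13.8 to 18.2 CPM, Btg2 at 9.50 to 15.6 CPM) and all SCZ+c-MSST libraries above and to the right of them.

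Within groups, the median r of Dusp1 to a list of 15 immediate early genes was 0.62, from -0.21 for Npas4 to 0.90 for Btg2, beside -0.01 over all tested genes. To 10 glucocorticoid response genes the median r was 0.09, with the clock gene Per1 highest at 0.52. Over the lists of cell and tissue markers it ran from -0.34 (oligodendrocytes) to 0.41 (astrocytes), with -0.24 for striatal neurons. The part of tissue composition in these values was not tested. Of the immediate early genes, 14 of 15 had a negative log2 fold change in SCZ against Control (median -0.71) and 14 of 15 a positive one in SCZ+c-MSST against SCZ (median 0.46). Of the glucocorticoid response genes, 9 of 10 were negative (median -0.43) and 9 of 10 positive (median 0.35). By edgeR 0 of these 25 genes passed the adjusted threshold in any comparison. In SCZ against Control, 11 of 15 and 7 of 10 had a negative value at an unadjusted p under 0.05, beside 13.5% of all genes in either direction. In SCZ+c-MSST against SCZ, 5 of 15 and 6 of 10 were positive at that level and 1 of 15 and 0 of 10 negative, beside 7.56%. DESeq2 called 3 of each list lower in SCZ than in Control (Arc, Egr2 and Nr4a1; Per1, Ddit4 and Nfkbia), where it called 1.84% of all genes. It called 3 of each higher in SCZ+c-MSST than in SCZ (Btg2, Nr4a1 and Ier2; Per1, Ddit4 and Nfkbia; 0.378% of all genes) and Btg2, Sgk1 and Nfkbia in the interaction (0.244%). These contrasts share the SCZ libraries, and the lists were chosen with earlier results of these data known. Egr1 and Arc, the most abundant of the first list, had log2 fold changes of -0.49 (SE 0.18, adjusted p = 0.249) and -1.15 (SE 0.26, adjusted p = 0.148) for MK-801. For c-MSST in MK-801 mice they had 0.21 (SE 0.19) and 0.33 (SE 0.27). Klf9 and Zbtb16, the most abundant of the second, had -0.18 (SE 0.07) and -0.64 (SE 0.24) and then 0.24 (SE 0.08) and 0.18 (SE 0.26).

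Other genes of the cascade were counted in the same way. Over all genes, 7.29% to 16.6% had an unadjusted p under 0.05 across the comparisons and the interaction. Among the 3 other typical phosphatases, Dusp9 (mean 0.932 CPM), Dusp10 (9.16 CPM) and Dusp16 (23.0 CPM), 0 were called by edgeR or DESeq2 in any comparison and 0 to 2 had an unadjusted p under 0.05, and the smallest edgeR adjusted p was that of Dusp10 for c-MSST in saline mice (log2 fold change -0.22, SE 0.08, adjusted p = 0.163). Of 16 atypical genes including Dusp14, 15 were tested and 0 called by either tool (0 to 5 at an unadjusted p under 0.05), and Dusp21 had 0 counts in every library, which allows at most 0.0349 to 0.0620 CPM (3 counts). Of the 13 MAP kinases, 7 MAP2 kinases and 14 Ras and Raf genes, 0 passed by edgeR in any comparison and 3 to 9 had an unadjusted p under 0.05. DESeq2 called 1 of these 34 for MK-801 (1.84% of all genes) and 2 for c-MSST in saline mice (3.46% of all genes), Map2k1 in both. Map2k1, one of the MAP2 kinases, had log2 fold changes of 0.19 (SE 0.05, adjusted p = 0.148) for MK-801 and -0.02 (SE 0.05) for c-MSST in MK-801 mice.

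Among 11 ERK feedback genes, which ERK induces or which restrain it, 7 were negative in SCZ against Control (median -0.08) and 6 positive in SCZ+c-MSST against SCZ (median 0.02). By edgeR 0 were called in any comparison, and 0 to 3 had an unadjusted p under 0.05, beside 7.29% to 16.6% of all genes. Etv5, an ERK-induced transcription factor, had log2 fold changes of -0.17 (SE 0.11, adjusted p = 0.550) and 0.39 (SE 0.12, adjusted p = 0.432) in those contrasts. For c-MSST in saline mice it had 0.36 (SE 0.11, adjusted p = 0.111). There it was the single one of the 11 that DESeq2 called (adjusted p = 0.0368), beside 3.46% of all genes. Of 17 effectors 0 were called by edgeR in any comparison (0 to 5 at an unadjusted p under 0.05; medians 0.04 and -0.0024 in the first contrasts). DESeq2 called 2 of them in Control+c-MSST against Control, beside 3.46% of all genes. They were the S6 kinase Rps6ka2 at 0.25 on the log2 scale (adjusted p = 0.00918) and the kinase Rps6ka5 at -0.65 (adjusted p = 0.00466). For MK-801 under c-MSST DESeq2 called Rps6ka5, at 0.87 (adjusted p = 9.04e-04), beside 0.454% of all genes. Of the 3 tyrosine phosphatases of MAP kinases, also with 0 called by edgeR or DESeq2 (0 to 1 at an unadjusted p under 0.05), Ptpn5, the striatum-enriched phosphatase, had 0.38 (SE 0.14, adjusted p = 0.250) for MK-801, where the striatal markers had a median of 1.14 with 9 of 9 positive, and the part of these in it was not tested.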

How the data were processed

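RNA of 19 libraries was compared, grouped by title. The authors deposited estimated counts per gene, whole numbers as found, and FPKM values, which they had scaled to gene length and depth. The submitters' processing notes name StringTie 1.3.5, Picard 2.18.29, STAR 2.7.7a, fastp 0.19.5 and the build mm10; annotation and strand setting are given in none of the sources used here. Genes were kept by filterByExpr (16417 of 20938), normalized by TMM and tested with edgeR 4.0.16 in R 4.3.3 (quasi-likelihood, robust, 1 coefficient per group, all 19 libraries). Benjamini-Hochberg adjustment ran over all tested genes, and genes were called at an adjusted p under 0.05. Levels are TMM-scaled CPM, and correlations used log2 CPM with a prior count of 2. The script was tested on simulated data. Library totals set a floor of 3 counts at 0.0349 to 0.0620 CPM.

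Members and gene lists were chosen with earlier results of these data known. Named were all members; called genes of each list or, with none, its 2 most abundant; and the 5 genes nearest to Dusp1 and 3 nearest to each other member. Per1, Npas4, Ttr, Hbb-bs, Hba-a1, the genes of the lists that DESeq2 alone called, Dusp9, Dusp10, Dusp16 and Dusp21 were named with their values known and not by this rule. Some genes that the rule took are left out of the text. Alternatives were DESeq2 1.42.0, upper-quartile scaling, other filters, limma 3.58.1 on log2(FPKM + 1) and log2(FPKM + 0.1), a replicate block, marker covariates, the compared groups alone and each library left out. No library was left out as a duplicate.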

Additional observations from a re-analysis of the deposited data

Results flagged for a closer look

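In each group the library farthest from the others was checked with Dixon's ratio for each of the 8 genes. Of 32 such groups 5 held a library beyond the 95% critical value, and chance flags about 1 in 20. Dusp4 stood at 17.0 CPM in Control replicate 2, the highest of 6, where Dusp5 was also highest, and at 11.0 CPM in Control+c-MSST replicate 1, the highest of 5. Dusp7 stood at 85.4 CPM in SCZ replicate 1, the highest of 4. Dusp8 stood at 178 CPM in SCZ+c-MSST replicate 4, the lowest of 4, and Dusp14 at 41.2 CPM in SCZ+c-MSST replicate 5, the highest of 4. Dusp1, the most abundant of the inducible members per length, had no such library in any group.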

How the results depend on the processing

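Leaving out a library of the compared groups, the log2 fold change of Dusp1 ran from -0.80 to -0.61 in the MK-801 contrast, 0.12 to 0.37 and 1.23 to 1.47 in the c-MSST contrasts of saline and of MK-801 mice, 0.24 to 0.52 in the MK-801 contrast under c-MSST and 0.97 to 1.25 in the interaction. With blood, endothelial and microglia scores as covariates, an alternative added with the data in view, it was -1.12 in the MK-801 contrast, -0.086 in the c-MSST contrast of saline mice and 1.76 in the interaction; the cause was not tested. The members called in SCZ against Control were 0 by edgeR, 3 by DESeq2 and 0 to 1 with a library left out (1, Dusp5, without Control replicate 4). In Control+c-MSST against Control they were 1 (Dusp14) by limma on log2(FPKM + 1) and 1 on log2(FPKM + 0.1). In SCZ+c-MSST against SCZ they were 1, Dusp1, by DESeq2, limma with either pseudocount, the compared groups alone and the blood, endothelial and microglia scores, and 0 to 1 with a library left out (1 without SCZ+c-MSST replicate 2, Control+c-MSST replicate 1 or 2, or Control replicate 1), counts that are no support for Dusp1, which was chosen there. In the interaction they were 1 (Dusp1) by DESeq2. Over all genes, edgeR called 0, 54, 0, 0 and 0 and DESeq2 243, 567, 62, 73 and 40, in the same order of contrasts. The second edgeR count was 250 to 259 by limma, 0 with the compared groups alone and 0 to 314 with a library left out (0 without Control+c-MSST replicate 6, 314 without Control replicate 7), and the first reached 94 without Control replicate 4. On log2(FPKM + 0.1), the r of Dusp1 was 0.22 with Dusp2, -0.15 with Dusp7, -0.24 with Dusp8 and 0.089 with Dusp14. No pairing by replicate number was seen in the levels. With group means removed, the correlation of same-numbered libraries of different groups ran from -0.24 to 0.25 over 19 pairs (median -0.01). Over 115 differently numbered pairs it ran from -0.24 to 0.32 (median -1.0e-04). Such correlations cannot show whether samples were handled together. With the replicate block 0 members and 0 genes were called, and the log2 fold change of Dusp1 was -0.75, 0.16, 1.46, 0.55 and 1.29 in that order. Of the Dusp1 values, its correlations and the counts of called members, 291 stayed alike under an alternative. Of the rest, 7 moved and 14 gained a call, all given above. A fold change counted as moved if it shifted by the spread between libraries or more, and a correlation if it shifted by at least 0.1. Of the other values, 1020 shifted by less than that spread and 18 by more. Depth limits Dusp2 most, at 0 to 96 counts per library.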
